A study of Rattus norvegicus with 24 samples.

Results

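The epidermal growth factor (EGF) family joins cells of the mammary epithelium and its stroma by secreted or membrane-bound ligands that bind the ErbB receptors. Here 10 genes of the family were followed: the ligands Areg, Ereg, Btc, Hbegf, Egf and Tgfa, which bind the EGF receptor, the ligand Nrg1, which binds Erbb3, and the receptors Egfr, Erbb2 and Erbb3. Every probe set annotated to 1 of these genes was taken, which gave 10 of the 14217 genes named on the array and 20 of the 31042 probe sets tested. Areg, Ereg, Btc, Hbegf, Egf, Erbb2 and Erbb3 had 1 probe set each, Tgfa had 2, Egfr had 3 and Nrg1 had 8.

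RNA came from abdominal mammary gland pairs of Sprague-Dawley rats. Mini-osmotic pumps under the skin delivered 17β-estradiol (E2), the main estrogen of the ovary, between postnatal day 21, when the rats were weaned, and postnatal day 33, when the glands were taken. The groups are female and male rats at 0, 0.1, 1 and 10 µg/kg/day, 3 arrays each, so that 24 arrays fall into 8 groups. The 0 groups also carried pumps. No other agent or allele, and no removal of the ovaries, is named in the labels. Each array is labelled as a separate sample, but nothing says that the samples came from separate rats. The p-values therefore rest on the spread between arrays, which may be technical. The whole gland holds epithelium, fat, vessels and stroma, so fewer cells of a type and less RNA per cell cannot be told apart.

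The deposited values are signed log values, taken here as log2 values. They are centred probe set by probe set within each sex. A value of 1 on this scale means 1 log2 unit above the middle of the arrays of that sex. Differences between doses within a sex, and the difference of such differences between the sexes, are kept. Levels, levels between genes, and differences in level between males and females are not kept, so the labelled sex and the presence of mammary markers could not be checked. The log base is not given in the sources used here. If it were the natural log, each fold below would be larger, while directions and tests would stay as they are. Difference ± SE below is from limma, with Benjamini-Hochberg adjustment of its p-values across the 31042 probe sets, and a probe set is called where the adjusted p is under 0.05.

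Amphiregulin, encoded by Areg, is made as a membrane-bound precursor and released by the protease Adam17. In the pubertal mammary gland it is known as the estrogen-induced ligand through which the hormone-responsive epithelial cells signal to Egfr in the stroma, and ducts fail to elongate without it. Erbb2 has no known ligand of its own and acts as the partner of the other receptors, and Erbb3 binds neuregulins but signals mainly through its partner. Progesterone receptor (Pgr) and Greb1, both known estrogen targets, are given as reference genes.

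The promoters of Areg, Tgfa and Egfr are shown because these genes rose in males at both 1 and 10 µg/kg/day. They are RefSeq sequences in build GRCr8, 250 bases before to 50 bases after the start of the gene, 5′ to 3′ on the strand of the gene, from a table that matched 7 of the 10 genes. Capitals mark the cAMP response element.
Areg, chr14:17265592-17265891, minus strand: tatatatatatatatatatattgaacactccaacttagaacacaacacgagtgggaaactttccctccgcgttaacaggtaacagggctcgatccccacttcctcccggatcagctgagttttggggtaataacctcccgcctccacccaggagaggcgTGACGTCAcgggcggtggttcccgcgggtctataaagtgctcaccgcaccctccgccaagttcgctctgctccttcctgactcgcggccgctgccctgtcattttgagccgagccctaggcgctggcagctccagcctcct
Tgfa, chr4:120175469-120175768, plus strand: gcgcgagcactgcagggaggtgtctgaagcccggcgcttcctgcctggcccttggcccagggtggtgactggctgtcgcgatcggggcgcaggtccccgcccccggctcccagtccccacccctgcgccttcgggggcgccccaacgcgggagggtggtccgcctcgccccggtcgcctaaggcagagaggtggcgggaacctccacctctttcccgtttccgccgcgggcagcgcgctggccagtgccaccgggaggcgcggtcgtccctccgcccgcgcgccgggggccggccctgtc
Egfr, chr14:95378376-95378675, plus strand: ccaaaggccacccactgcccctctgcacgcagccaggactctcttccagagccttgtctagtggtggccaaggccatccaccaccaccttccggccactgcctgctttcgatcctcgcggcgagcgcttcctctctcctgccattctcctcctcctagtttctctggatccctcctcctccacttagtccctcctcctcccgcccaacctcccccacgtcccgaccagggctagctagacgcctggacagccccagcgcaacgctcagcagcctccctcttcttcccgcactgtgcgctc
In the Areg window, the cAMP response element TGACGTCA lies from position -91 to -84 relative to the gene start. This motif, which is its own reverse complement, was found in 1.83% of the 33469 promoters of the same length, and in no other of the 7 promoters searched. The GC box GGGCGG, the letters bound by SP1, begins at -82 in Areg, with 1 base between it and the cAMP response element. It is also present in the windows of Btc, Tgfa, Egfr and Erbb2, and in 33.1% of all promoters. Both strands were searched. The palindromic estrogen response element (0.0269% of all promoters), its single arm GGTCA (40.5%) and the AP-1 motif TGANTCA (7.33%) were not found in the 7 windows, and the cAMP element's arm TGACG (21.2%) was found in Areg, within the full element, and in Hbegf. These matches describe the letters in these windows and are not binding data. In the same build the ligand genes Btc, Areg, Ereg and Epgn are neighbours on chromosome 14, in that order, while Egfr lies elsewhere on that chromosome.

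In males 4 of the 10 genes had calls at 10 µg/kg/day, and Areg had the largest difference. Areg RNA was 9.09-fold higher at 1 µg/kg/day and 40.9-fold higher at 10 µg/kg/day than at 0, and Egfr was 2.52-fold higher at 10. At 10 against 0, 6 of the 20 probe sets were called, all higher, against 17.5% of all probe sets called in either direction and 7.81% called higher. They belong to Areg, Ereg, Tgfa (both probe sets) and Egfr (2 of 3). In females at 10 against 0, 2 of 20 were called, both higher (Ereg and 1 Egfr probe set), against 1.86% of all probe sets in either direction and 0.812% called higher. In a fit of the female arrays alone neither passed (adjusted p = 0.161 and 0.165). The median difference over the 20 probe sets was 0.15 in males and 0.21 in females, against -0.0053 over all probe sets in each sex, and 16 and 17 of the 20 differences were above 0.

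**Figure D1:**
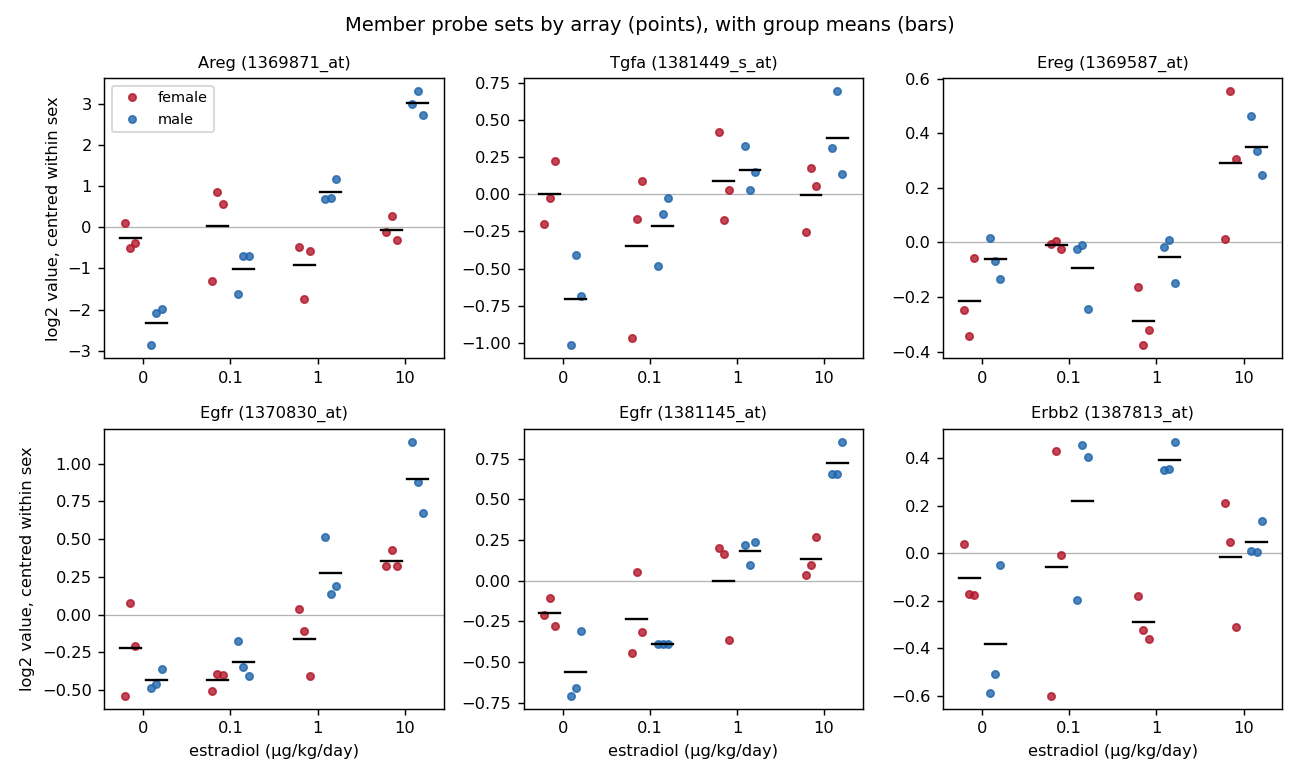
Deposited log2 value of 6 probe sets on each of the 24 arrays (points) with group means (bars), by E2 dose in µg/kg/day (an ordered axis, not to scale), females in red and males in blue. Each sex is centred on its own, so only differences within a color can be read. Areg climbs from dose to dose in males, from a mean of -2.32 to 3.03, and in females shows no such order.

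Areg separated all 4 male dose groups. At 0 the 3 male arrays had log2 values of -2.88, -2.10 and -1.99. At 0.1 they had -1.62, -0.70 and -0.69, and at 1 they had 0.69, 0.71 and 1.19. At 10 they had 3.02, 3.32 and 2.75. No male array of a higher dose lay below any array of a lower dose. Against 0, the log2 difference was 1.32 ± 0.44 at 0.1 (adjusted p = 0.343), 3.18 ± 0.44 at 1 (adjusted p = 0.00117) and 5.35 ± 0.44 at 10 (adjusted p = 1.03e-06, 95% confidence interval 4.43 to 6.28). Of the neighbouring doses, 10 exceeded 1 by 2.17 ± 0.44 (adjusted p = 0.0415), while the steps from 0 to 0.1 and from 0.1 to 1 (1.87 ± 0.44, adjusted p = 0.471) did not pass. The call at 10 against 0 held under each of 14 other settings and with each of the 6 arrays left out in turn, with differences from 4.34 to 5.91 and from 5.08 to 5.52. The call of 10 over 1 was lost without any 1 of its 6 arrays (male 1 replicates 7, 8 and 9 and male 10 replicates 10, 11 and 12), with differences of 2.02 to 2.33 and adjusted p up to 0.22, and under quantile normalization it was 1.14 (adjusted p = 0.416). The call at 1 against 0 held with each array left out and was lost with the luminal marker mean as a covariate (1.79, adjusted p = 0.0841). Both lower steps passed in some settings: 0.1 over 0 with the beta-actin covariate described below (1.63, adjusted p = 0.0485), and 1 over 0.1 with array weights (1.74, adjusted p = 0.0334) and without the 2 widest arrays (1.87, adjusted p = 0.0326).

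In females Areg varied as much within a dose as between doses. The 3 female arrays had log2 values of 0.11, -0.49 and -0.39 at 0, and -1.30, 0.87 and 0.57 at 0.1. They had -0.47, -1.75 and -0.56 at 1, and -0.11, 0.27 and -0.31 at 10. The groups at 0 and 10 overlapped, and the difference between them was 0.20 ± 0.44 (adjusted p = 0.907), with an interval of -0.72 to 1.13. No female comparison of Areg passed in the main analysis. With array weights 2 did: 0.1 exceeded 0 by 1.08 (adjusted p = 0.0436, against 0.30 in the main analysis), and 1 against 0.1 gave -1.73 (adjusted p = 0.0135). The weights of female 0.1 replicates 4, 5 and 6 were 0.16, 3.48 and 0.45. Both results thus rest mainly on replicate 5, with an Areg value of 0.87, in a group that reached down to -1.30. The male difference minus the female difference was 1.02 ± 0.63 at 0.1 (adjusted p = 0.624), 3.86 ± 0.63 at 1 (adjusted p = 0.0307) and 5.15 ± 0.63 at 10 (adjusted p = 0.000652). The last held with each of the 12 arrays left out. The one at 1 was lost without 9 of its 12 arrays (female 0 replicates 1, 2 and 3, female 1 replicates 8 and 9, male 0 replicate 1 and male 1 replicates 7, 8 and 9), with differences of 3.44 to 4.04 and adjusted p up to 0.105.

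Pgr and 1 of the 2 Greb1 probe sets gave differences in both sexes. Pgr rose by 2.93 ± 0.32 in males (adjusted p = 1.36e-05) and by 1.42 ± 0.32 in females (adjusted p = 0.0281) at 10 against 0. Greb1 (1384529_at) rose by 3.26 ± 0.37 in males (adjusted p = 1.59e-05) and by 1.56 ± 0.37 in females (adjusted p = 0.033). The second Greb1 probe set, 1378792_at, had 0.07 ± 0.10 in males (adjusted p = 0.644) and 0.12 ± 0.10 in females (adjusted p = 0.686). The male minus female differences, 1.51 ± 0.46 for Pgr and 1.69 ± 0.52 for Greb1 1384529_at, did not pass (adjusted p = 0.0999 and 0.102). The estrogen receptor gene Esr1 fell by 0.64 ± 0.18 in males (adjusted p = 0.0174) and had a difference of -0.27 ± 0.18 in females (adjusted p = 0.581).

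Transforming growth factor alpha, encoded by Tgfa, is a close relative of EGF that mammary epithelium can make for itself. The 3 male arrays of probe set 1381449_s_at had log2 values of -1.02, -0.41 and -0.69 at 0, and -0.48, -0.13 and -0.03 at 0.1. They had 0.32, 0.03 and 0.15 at 1, and 0.31, 0.69 and 0.13 at 10. The arrays at 1 and 10 lay above all those at 0 and 0.1, and overlapped with each other. The difference from 0 was 0.87 ± 0.23 at 1 (adjusted p = 0.0443) and 1.08 ± 0.23 at 10 (adjusted p = 0.00357). The other probe set, 1387450_at, gave 0.68 ± 0.20 at 1 (adjusted p = 0.0665) and 0.86 ± 0.20 at 10 (adjusted p = 0.00734). Of the 2 calls at 10, that of 1381449_s_at held with each array left out, and that of 1387450_at was lost without male 0 replicate 1 (0.70, adjusted p = 0.0546) or male 10 replicate 11 (0.65, adjusted p = 0.0559). The call at 1 was lost without any 1 of its 6 arrays (male 0 replicates 1, 2 and 3 and male 1 replicates 7, 8 and 9; 0.71 to 1.02, adjusted p up to 0.231). At 1 the probe set 1387450_at passed with array weights (0.63, adjusted p = 0.036) and without the less variable probe sets (0.68, adjusted p = 0.0471). With a covariate for RNA integrity, the 3′ minus 5′ signal of beta-actin, the differences at 10 were 0.59 (adjusted p = 0.302) and 0.37 (adjusted p = 0.466).

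In females neither Tgfa probe set passed at any dose. The 3 female arrays of 1381449_s_at had log2 values of -0.20, -0.03 and 0.22 at 0, -0.97, -0.17 and 0.09 at 0.1, 0.42, -0.17 and 0.03 at 1, and -0.26, 0.17 and 0.06 at 10, so that all 4 groups overlapped. The male minus female difference at 10 was 1.09 ± 0.33 (adjusted p = 0.0965) for 1381449_s_at and 0.67 ± 0.29 (adjusted p = 0.218) for 1387450_at. For 1381449_s_at it passed with array weights (0.99, adjusted p = 0.0209) and with a fixed replicate block (1.09, adjusted p = 0.0344), so whether the sexes differ in Tgfa depended on the setting.

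Epiregulin, encoded by Ereg next to Areg, was higher at 10 µg/kg/day in both sexes, by less than 1 log2 unit. The 3 male arrays had log2 values of 0.02, -0.07 and -0.13 at 0, and 0.46, 0.33 and 0.25 at 10. The 9 male arrays at 0, 0.1 and 1 all lay between -0.24 and 0.02, below the 3 at 10. The 3 female arrays had -0.25, -0.34 and -0.06 at 0, -0.16, -0.38 and -0.32 at 1, and 0.01, 0.55 and 0.31 at 10. Female arrays at 0.1 lay between -0.03 and 0.0046, a narrow band between the groups at 0 and 10. The difference of 10 from 0 was 0.41 ± 0.11 in males (adjusted p = 0.0158) and 0.51 ± 0.11 in females (adjusted p = 0.0224), and the male minus female difference was -0.10 ± 0.16 (adjusted p = 0.774, interval -0.42 to 0.23). Female 10 also exceeded female 1 by 0.58 ± 0.11 (adjusted p = 0.0395), and male 10 exceeded male 0.1 by 0.44 ± 0.11 (adjusted p = 0.0263).

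The Ereg calls depended on single arrays. In males the call of 10 over 0 was lost without male 0 replicate 3 (0.38, adjusted p = 0.056) or male 10 replicate 10 (0.35, adjusted p = 0.0616), and that of 10 over 0.1 without male 0.1 replicate 5 or 6 or male 10 replicate 10 or 11 (0.37 to 0.48, adjusted p up to 0.148). In females the call of 10 over 0 was lost without female 0 replicate 1 or 2 or female 10 replicate 11 or 12 (0.37 to 0.50, adjusted p up to 0.116), and that of 10 over 1 without female 1 replicate 7, 8 or 9 or female 10 replicate 11 or 12 (0.45 to 0.64, adjusted p up to 0.214). The markers of skin keratinocytes and hair follicles moved with Ereg in males. The mean over the 11 genes measured lay between -0.35 and -0.28 at 0 and between 1.22 and 2.57 at 10 in males, with 8 of 11 genes called higher, and Ereg and that mean had r = 0.87 over the 12 male arrays. In females the marker mean lay between 0.24 and 1.44 at 0 and between -0.33 and 0.35 at 10, with 0 of 11 genes called, while Ereg was higher at 10. By probe set, 9 of 14 keratinocyte markers were called higher in males, against 7.81% of all. In females it was 0 of 14, against 0.812% of all. The part of these cells in the male Ereg difference was not tested.

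The other ligands of Egfr did not pass in any comparison of the main analysis. Without male 0 replicate 3, Btc passed in males at 1 against 0 (-0.43, adjusted p = 0.0402). Betacellulin (Btc) had a difference of 0.02 ± 0.11 in males and 0.10 ± 0.11 in females at 10 against 0, with group means between -0.26 and 0.07 over all 8 groups. Heparin-binding EGF-like growth factor (Hbegf) had -0.20 ± 0.26 in males and 0.23 ± 0.26 in females. Egf itself had 0.02 ± 0.39 in males and -0.0024 ± 0.39 in females, the widest error of the family after Areg. The intervals, -0.81 to 0.84 for Egf in males and -0.75 to 0.34 for Hbegf, do not show that these RNAs stayed level. Within sexes, the Egf values followed skeletal muscle markers. The 2 highest female Egf values, 0.94 (0.1, replicate 4) and 1.02 (1, replicate 9), were on the female arrays with the highest muscle marker means, 1.89 and 1.65. Over 12 arrays r between Egf and the mean of 19 muscle genes was 0.83 in males and 0.75 in females, and 0.96 and 0.89 after the group means were removed. For Hbegf it was 0.70 and 0.61. These arrays share their RNA with the markers, so the correlation is a description, and the part of muscle RNA in the Egf and Hbegf values was not tested.

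Neuregulin 1 (Nrg1), a ligand of Erbb3 made from many alternative transcripts, was the only member with female calls and no male call in the main analysis. Its 8 probe sets did not move alike. Probe set 1369783_a_at on the 3 female arrays had log2 values of -0.0047, -0.27 and -0.18 at 0, and -0.74, 0.0047 and -0.17 at 0.1. It had -0.35, -0.60 and -0.11 at 1, and 0.53, 0.51 and 0.41 at 10, above all other female arrays. Female 10 exceeded female 1 by 0.83 ± 0.17 (adjusted p = 0.0493) and female 0.1 by 0.78 ± 0.17 (adjusted p = 0.0363), and the difference from 0 was 0.63 ± 0.17 (adjusted p = 0.0696). In males it was 0.09 ± 0.17 at 10 against 0, and the male minus female difference was -0.54 ± 0.25 (adjusted p = 0.24), so the sexes were not shown to differ. Probe set 1370607_a_at had like differences of 10 from 0 in the sexes, 0.58 ± 0.20 in males (adjusted p = 0.0524) and 0.56 ± 0.20 in females (adjusted p = 0.182). The male difference passed in 5 other settings, with male arrays only (0.58, adjusted p = 0.00185), the compared groups only (0.58, adjusted p = 0.0122), array weights (0.52, adjusted p = 0.0151), without the less variable probe sets (0.58, adjusted p = 0.0396) and without the 2 widest arrays (0.50, adjusted p = 0.0372). The female one passed in 2, with array weights (0.59, adjusted p = 0.0337) and without the 2 widest arrays (0.56, adjusted p = 0.0319). The other 6 probe sets gave differences between -0.14 and 0.15 in males and between -0.04 and 0.41 in females at 10 against 0, and none was called. In the 2 female comparisons with an Nrg1 call, 2 of the 20 probe sets of the family were called in each, against 0.267% of all probe sets for 10 over 1 and 0.944% for 10 over 0.1.

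The Nrg1 calls were near the threshold. For 1369783_a_at the female difference of 10 from 0 passed with array weights (0.64, adjusted p = 0.0107), with hepatocyte and muscle covariates (0.72, adjusted p = 0.0461) and without the 2 widest arrays (0.63, adjusted p = 0.0253). The call of 10 over 1 was lost without female 1 replicate 7 or 8 or female 10 replicate 10, 11 or 12 (0.71 to 0.87, adjusted p up to 0.3). That of 10 over 0.1 was lost without female 0.1 replicate 4 or 6 or female 10 replicate 10, 11 or 12 (0.57 to 0.85, adjusted p up to 0.16). Over the 12 female arrays 1369783_a_at and the luminal marker mean had r = 0.86. With the luminal mean as a covariate the difference of 10 from 1 was 0.53 (adjusted p = 0.19).

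The EGF receptor gene rose in males with Areg, its ligand. Probe set 1370830_at of Egfr had log2 values of -0.49, -0.46 and -0.36 on the 3 male arrays at 0, and -0.18, -0.35 and -0.41 at 0.1. It had 0.51, 0.13 and 0.19 at 1, and 1.15, 0.88 and 0.67 at 10. The arrays at 1 lay above those at 0 and 0.1 and below those at 10, while 0 and 0.1 overlapped. The difference from 0 was 0.12 ± 0.14 at 0.1 (adjusted p = 0.724), 0.71 ± 0.14 at 1 (adjusted p = 0.0129) and 1.33 ± 0.14 at 10 (adjusted p = 1.1e-05). The neighbouring doses did not differ past the threshold (10 against 1, 0.62 ± 0.14, adjusted p = 0.0745; 1 against 0.1, 0.59 ± 0.14, adjusted p = 0.476). With array weights 10 exceeded 1 (0.56, adjusted p = 0.0275), as it did without male 1 replicate 7 (0.74, adjusted p = 0.0448).

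Probe set 1381145_at gave the same order in males. Its male arrays had log2 values of -0.71, -0.66 and -0.31 at 0, 0.22, 0.09 and 0.23 at 1, and 0.66, 0.66 and 0.85 at 10, and the 3 arrays at 0.1 all had -0.39, within the range at 0. It differed from 0 by 0.74 ± 0.14 at 1 (adjusted p = 0.00888) and by 1.28 ± 0.14 at 10 (adjusted p = 1.28e-05). Its step from 1 to 10 passed in 4 settings: male arrays only (0.54, adjusted p = 0.0437), the compared groups only (0.54, adjusted p = 0.0486), array weights (0.56, adjusted p = 0.0129) and the luminal covariate (0.61, adjusted p = 0.0327). The third probe set, 1385413_at, differed by 0.23 ± 0.12 at 10 (adjusted p = 0.187) and overlapped between the groups. Which Egfr transcripts each probe set reads is not given in the sources used here. For both called probe sets the call of 10 over 0 held under each of 14 other settings and with each of the 6 arrays left out (1.21 to 1.45 for 1370830_at and 1.21 to 1.41 for 1381145_at). At 1 against 0, the call of 1370830_at was lost without male 0 replicate 1 (0.69, adjusted p = 0.0791) or male 1 replicate 7 (0.60, adjusted p = 0.0688), and that of 1381145_at without male 0 replicate 1 (0.67, adjusted p = 0.0725) or male 1 replicate 9 (0.71, adjusted p = 0.0521).

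In females Egfr was called at 10 alone, in 1 of its 3 probe sets. Probe set 1370830_at had log2 values of -0.54, 0.08 and -0.21 on the 3 female arrays at 0, and -0.50, -0.39 and -0.40 at 0.1. It had 0.04, -0.11 and -0.41 at 1, and 0.33, 0.43 and 0.32 at 10, above every other female array. The difference of 10 was 0.58 ± 0.14 from 0 (adjusted p = 0.044) and 0.79 ± 0.14 from 0.1 (adjusted p = 0.00986). The first call was lost without female 0 replicate 1 (0.42, adjusted p = 0.212) or 3, or female 10 replicate 10, 11 or 12 (0.55 to 0.60, adjusted p up to 0.138), and the second without female 0.1 replicate 4 (0.76, adjusted p = 0.0522) or female 10 replicate 11 (0.76, adjusted p = 0.0575). The female difference at 10 against 0 for 1381145_at was 0.33 ± 0.14 (adjusted p = 0.309). The male minus female difference at 10 passed for 1381145_at (0.95 ± 0.20, adjusted p = 0.0272) and not for 1370830_at (0.75 ± 0.20, adjusted p = 0.0711), which passed with array weights (0.75, adjusted p = 0.0217), with a random replicate block (0.75, adjusted p = 0.0432), without female 0 replicate 1 (0.91, adjusted p = 0.0282) and without arrays with a hepatocyte mean above 0.5 (0.96, adjusted p = 0.047). The call of 1381145_at was lost without female 0 replicate 2 or 3, female 10 replicate 10 or 12, male 0 replicate 1 or male 10 replicate 12 (0.88 to 1.02, adjusted p up to 0.0794). The keratinocyte and hair follicle mean and Egfr had r = 0.91 (1370830_at) and 0.84 (1381145_at) over the 12 male arrays, and 0.11 and 0.27 over the 12 female arrays. Epidermal keratinocytes are known to carry Egfr, and their part in the male difference was not tested.

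**Figure D2:**
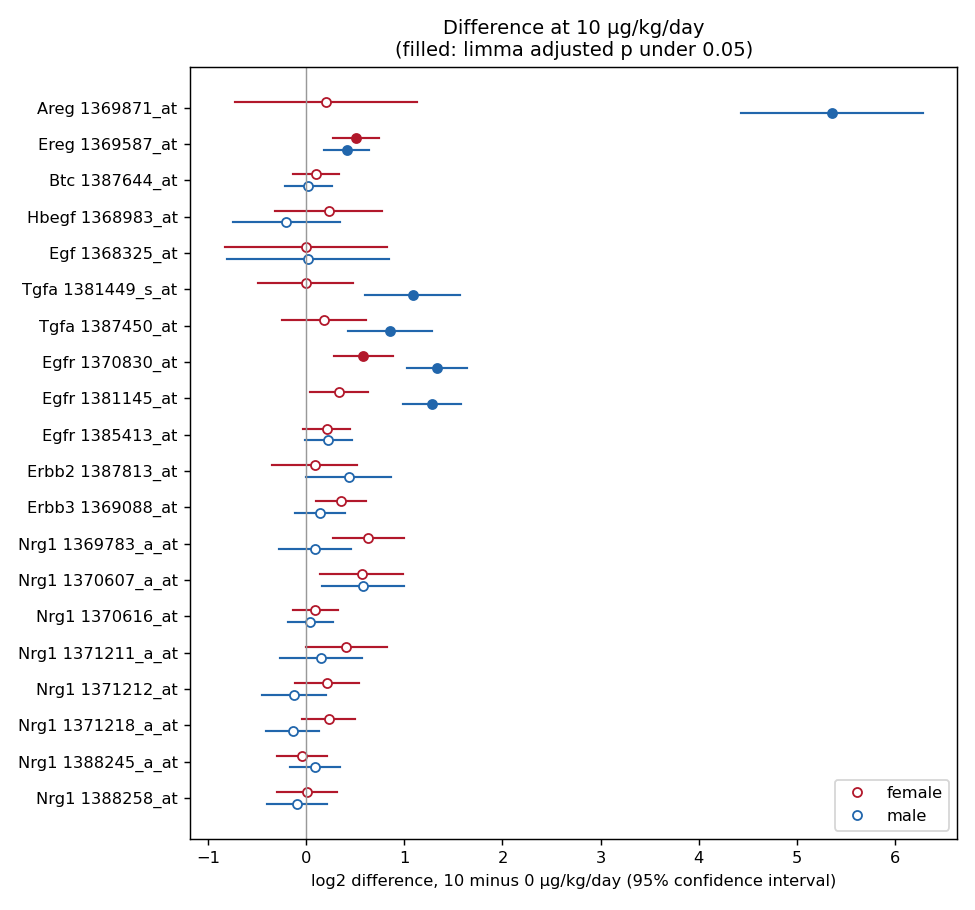
Log2 difference of 10 minus 0 µg/kg/day for each of the 20 probe sets, females in red and males in blue, with 95% confidence intervals; filled points passed at an adjusted p under 0.05. Areg in males stands at 5.35 and the next, Egfr 1370830_at in males, at 1.33.

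The receptor Erbb2 had another shape in males, with its highest mean at 1 µg/kg/day. The 3 male arrays had log2 values of -0.59, -0.51 and -0.05 at 0, and -0.20, 0.46 and 0.40 at 0.1. They had 0.35, 0.35 and 0.47 at 1, and 0.0073, 0.0065 and 0.13 at 10. The arrays at 1 lay above those at 0 and those at 10, and overlapped with those at 0.1. The difference from 0 was 0.77 ± 0.21 at 1 (adjusted p = 0.046), 0.60 ± 0.21 at 0.1 (adjusted p = 0.355) and 0.43 ± 0.21 at 10 (adjusted p = 0.16), and 10 against 1 gave -0.34 ± 0.21 (adjusted p = 0.67). The call at 1 was lost without male 0 replicate 1 (0.67, adjusted p = 0.217) or 2, or any of male 1 replicates 7, 8 and 9 (0.71 to 0.79, adjusted p up to 0.166). In females Erbb2 did not pass in any comparison, with group means between -0.29 and -0.02. At 1 against 0 in males, 5 of the 20 probe sets were called, all higher, against 3.63% of all probe sets in either direction and 1.53% called higher; they are those of Areg, Erbb2, Tgfa (1381449_s_at) and Egfr (1370830_at and 1381145_at).

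Erbb3 did not pass at any dose. Its difference at 10 against 0 was 0.14 ± 0.12 in males (adjusted p = 0.457) and 0.36 ± 0.12 in females (adjusted p = 0.162), and at 1 in males it was 0.32 ± 0.12 (adjusted p = 0.153). The female arrays at 10 (0.38, 0.18 and 0.07) lay above those at 0 (-0.11, -0.22 and -0.10).

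Luminal epithelial markers moved with several members. Of 21 luminal genes measured, 12 were called higher in males at 1 against 0, 8 at 10 against 0, and 3 in females at 10 against 0. By probe set these were 14, 8 and 3 of 25, against 1.53%, 7.81% and 0.812% of all called higher. The luminal mean in males was -0.57 (range -1.01 to -0.02) at 0, 0.09 (-0.38 to 0.34) at 0.1, 0.40 (0.30 to 0.54) at 1 and 0.14 (-0.09 to 0.28) at 10, and so had its highest value at 1, as Erbb2 had. In females it was -0.22, -0.09, -0.30 and 0.31 over the rising doses. The male peak at 1 was not particular to luminal markers. Basal and myoepithelial means in males were -0.39, 0.05, 0.27 and 0.20, and salivary gland means -0.23, -0.05, 0.20 and 0.12. Of 21 basal probe sets, 6 were called higher and 1 lower in males at 1. After group means were removed, r of Erbb2 with the skeletal muscle mean was -0.80 in males and -0.52 in females. Over 12 arrays the luminal mean and Erbb2 had r = 0.95 in males and 0.86 in females, and 0.93 and 0.97 after the group means were removed. With the luminal mean as a covariate the Erbb2 difference at 1 in males was 0.03 (adjusted p = 0.964), and 0 of the 20 probe sets were called at 1 by limma, against 5 without it. The Egfr differences at 1 were then 0.77 (1370830_at, adjusted p = 0.199, against 0.71 without the covariate) and 0.50 (1381145_at, adjusted p = 0.285), and those of Tgfa at 10 were 0.73 (1381449_s_at, adjusted p = 0.0675) and 0.54 (1387450_at, adjusted p = 0.125). Without the covariate 3.63% of all probe sets were called in males at 1 against 0. The share called with it is not given here, so the loss of calls cannot be read as particular to the family. In males the luminal mean itself moved with dose, so covariate and dose cannot be told apart. The part of luminal cells in the members' differences was not tested.

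Areg followed the luminal mean within groups but not across the upper male doses. Between 1 and 10 the male luminal mean went from 0.40 to 0.14 while mean Areg went from 0.86 to 3.03. The correlation of Areg with the luminal mean was 0.61 in males and 0.78 in females over 12 arrays, and 0.82 and 0.89 after the group means were removed. The r of Areg with the skeletal muscle mean, after the group means were removed, was -0.71 in males and -0.50 in females. With the luminal mean as a covariate the Areg difference of 10 from 0 in males was 4.34 (adjusted p = 3.54e-07). The keratinocyte and hair follicle mean also moved with Areg in males, from -0.30 at 0 to 1.91 at 10. Its r over the 12 male arrays was 0.86 with Areg, 0.76 with Tgfa 1381449_s_at and 0.63 with Tgfa 1387450_at, and over the 12 female arrays it was 0.14, 0.31 and 0.22. The part of these cells in the Areg and Tgfa differences was not tested. White adipocyte markers went the other way, with 18 of 19 genes called lower in males and 14 of 19 in females at 10 against 0. By probe set these were 26 of 29 and 18 of 29, against 17.5% and 1.86% of all called in either direction. Mean adipocyte values in males lay between 0.38 and 0.51 at 0 and between -0.84 and -0.61 at 10. The part of the share of fat in the members' values was not tested.

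**Figure D3:**
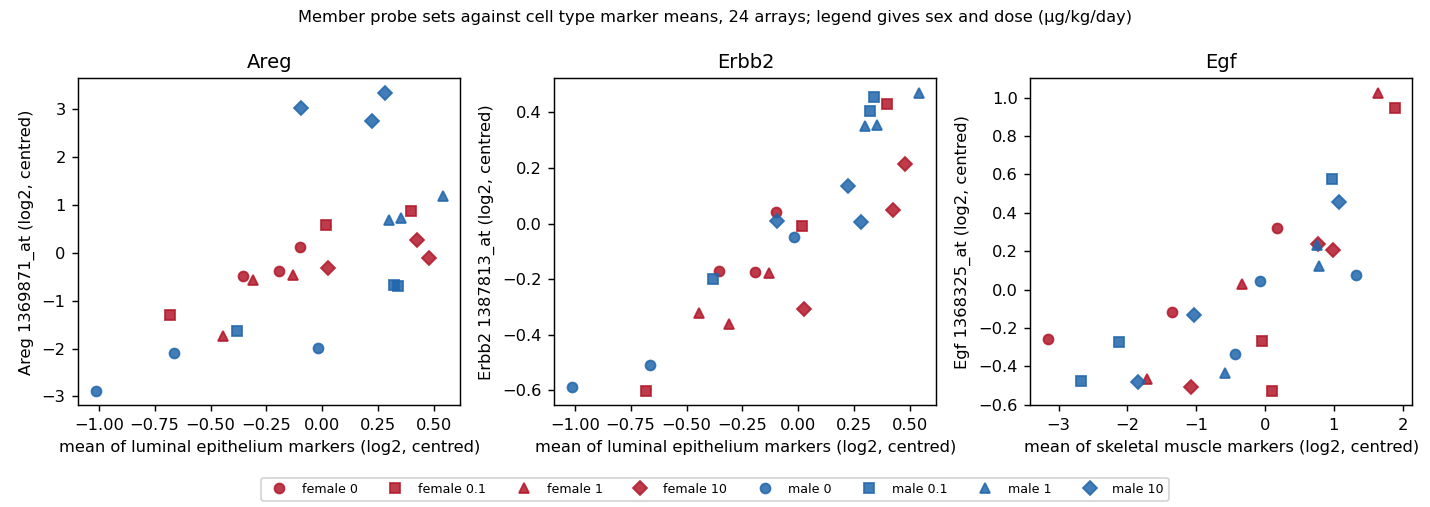
Log2 value of Areg, Erbb2 and Egf against the mean of a cell type's markers on the same array, luminal epithelium for the first 2 panels and skeletal muscle for the third, 24 arrays, marker shape for the dose and color for the sex. Erbb2 rises with the luminal mean in both sexes (r = 0.95 in males and 0.86 in females), and the 3 male Areg values at 10 stand above the other arrays of like luminal mean.

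Some arrays were also higher than others of their sex in markers of liver and muscle, and arrays differed in a beta-actin measure of RNA integrity. The hepatocyte mean was above 1 on 3 arrays (female 0 replicate 1, male 0 replicates 2 and 3) and above 0.5 on 5 (also female 1 replicate 7 and male 1 replicate 7). Without the 3 arrays, male 0 keeps 1 array, which is then assumed to vary like the other groups. The difference of Areg at 10 in males was then 5.91 (adjusted p = 0.00019). Of the family, 6 of 20 probe sets were called there, without Ereg (0.33, adjusted p = 0.188) and with Nrg1 1371218_a_at, which was lower (-0.52, adjusted p = 0.0167). In females at 10 against 0 neither call held without them (Ereg 0.49, adjusted p = 0.113, and Egfr 1370830_at 0.42, adjusted p = 0.258). The difference between 3′ and 5′ beta-actin probe sets, a measure of RNA integrity, was -0.56, -0.06 and -0.28 on the male 0 arrays and -0.02, 0.16 and 0.05 on the male 10 arrays. It was -0.36, -0.50 and -0.47 on the male 0.1 arrays and -0.24, -0.36 and -0.15 on the male 1 arrays. By this measure the male 10 arrays lay above all other male arrays, while the male 0 range spanned the arrays at 0.1 and 1. In males this covariate and the dose of 10 thus cannot be told apart. The same difference for GAPDH was -0.14, -0.07 and -0.03 on the male 0 arrays and 0.01, -0.06 and -0.02 on the male 10 arrays. With the beta-actin difference as a covariate Areg differed by 4.58 (adjusted p = 0.000441) at 10 in males, and 3 of the 6 calls held (Areg and the 2 of Egfr). None of the 4 calls of male 10 over 0.1 held with it (Areg 2.96, adjusted p = 0.0685; Ereg 0.53, adjusted p = 0.153; Egfr 1.08 and 0.84, adjusted p = 0.0648 and 0.0989), nor that of Areg at 10 over 1 (1.5, adjusted p = 0.364).

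The lowest dose gave no call. At 0.1 against 0, limma called 0 of 20 probe sets in males and 0 in females, where 0% of all probe sets were called in each. At an unadjusted p under 0.05 there were 6 of 20 in males, against 11.9% of all probe sets, and 2 of 20 in females, against 9.93%. At 1 against 0 in females 0 of 20 were called, with 0% of all probe sets called and 1 of 20 at an unadjusted p under 0.05, against 2.73% of all. In males 10 exceeded 0.1 for Areg (4.04 ± 0.44, adjusted p = 4.79e-05), Ereg and both Egfr probe sets (1.21 ± 0.14, adjusted p = 9.21e-05, and 1.11 ± 0.14, adjusted p = 0.000145), 4 of 20 against 4.45% of all. Between 10 and 1 in males Areg alone was called, 1 of 20 against 0.387% of all. Between 1 and 0.1 the family had 0 of 20 in each sex, against 0.0129% of all, with 3 in males (3.87% of all) and 2 in females (7.15% of all) at an unadjusted p under 0.05. In the tests of male minus female difference, 0 of 20 were called at 0.1 (0% of all, with 2 of 20 and 7.3% of all at an unadjusted p under 0.05), 1 of 20 at 1 (0.0483% of all) and 2 of 20 at 10 (1.28% of all).

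Groups that did not overlap gave the same count in both sexes. At 10 against 0, 8 of the 20 probe sets had all 3 arrays at 10 above all 3 at 0 in males, against 18.2% of all probe sets, and 8 of 20 in females, against 9.67%. None of the 20 lay wholly below, against 18.9% of all in males and 10.2% in females. Of the 8 in males and the 8 in females, Ereg, the 2 called Egfr probe sets and Nrg1 1370607_a_at are shared. The males add Areg, the 2 Tgfa probe sets and Erbb2, and the females add Erbb3 and 3 other Nrg1 probe sets.

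Genes whose pattern was most like Areg differed between the sexes. Over the 12 male arrays the highest Pearson correlations with Areg were those of Nr2f1 (0.99), Usp11 (0.99), Pgr (0.99), Zbtb43 (0.98) and Gpm6b (0.98), each called higher in males at 10 against 0, by 1.05, 0.51, 2.93, 1.04 and 1.48. After group means were removed, their r was 0.89, 0.75, 0.64, 0.91 and 0.41. Over the 12 female arrays the highest were the luminal keratin Krt8 (0.95), Nxph3 (0.95), Zfp799 (0.94), Irx4 (0.93) and Cmss1 (0.93), of which none was called in females at 10 against 0. The arrays of a sex share their dose groups and cell makeup, so these are descriptions of likeness.

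For the other called members the 3 most alike genes were named in the sex where the member passed. For Egfr in males they were Gja1, a gap junction connexin (0.99), Emilin1 (0.99) and Rerg (0.99) for 1381145_at, and Lpar1, a receptor for lysophosphatidic acid (0.98), the laminin chain Lama5 (0.97) and Rgma (0.97) for 1370830_at. For Egfr 1370830_at in females they were Gbf1 (0.90), Gas6 (0.89) and Asic2 (0.89). For Ereg in males they were the desmosomal gene Dsg1 (0.95), which is 1 of the keratinocyte markers, Krtap1-5, a hair keratin-associated protein (0.92), and Tmem35a (0.92), and in females Fcgbp (0.95), Rsph10b (0.92) and Gpr15lg (0.91). For Tgfa in males they were Rbm26 (0.96), Dkk3 (0.96) and Thoc5 (0.96) for 1381449_s_at, and Srsf11 (0.95), Aplf (0.95) and Thoc5 (0.95) for 1387450_at. For Erbb2 in males they were Gng13 (0.98), Mylk (0.97) and Eps15 (0.97), and for Nrg1 1369783_a_at in females Duoxa1 (0.94), Trps1 (0.94) and C14h4orf19 (0.93).

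The remaining genes of the pathway, from fixed lists, moved in part. A gene was counted as called where at least 1 of its probe sets was. Of the other EGF-family genes, 3 of 5 were measured (Nrg2, Nrg4 and the receptor Erbb4), and Nrg4, a ligand of Erbb4 made by fat, fell in males by 0.75 ± 0.13 at 1 (adjusted p = 0.00556) and by 0.72 ± 0.13 at 10 (adjusted p = 0.00105) and in females by 0.57 ± 0.13 at 10 (adjusted p = 0.0279). In each of these comparisons Nrg4 was 1 of 5 probe sets of its list, or 20%. The shares of all probe sets were 3.63%, 17.5% and 1.86% in that order. Adipocyte markers fell in the same comparisons, and their part in the Nrg4 difference was not tested. Of the sheddases that release the ligands and their regulators, 9 genes were measured. In males at 10 against 0, Timp3, an inhibitor of Adam17, fell in 1 of its 4 probe sets, by 0.76 ± 0.13 (1368989_at, adjusted p = 0.00071), with -0.36 to -0.04 in the 3 not called, Rhbdf2, which carries Adam17 to the cell surface, rose by 0.35 ± 0.11 (adjusted p = 0.0364) and the other 7 were not called, among them Adam17 with 0.21 ± 0.09 (adjusted p = 0.114). By probe set this was 2 of 16, a share of 12.5% that lies below the 17.5% of all probe sets. In females at 10 against 0 Adam19 fell in 1 of its 4 probe sets, by 0.51 ± 0.13 (1389151_at, adjusted p = 0.0423), with -0.41 to -0.15 in the 3 not called, and the other 8 genes were not called. This was 1 of 16 probe sets, 6.25% against 1.86% of all. Median differences over the probe sets of the other ligands and receptor and of the sheddases were -0.24 and -0.16 in males and 0.10 and 0.02 in females.

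Of 17 genes measured that relay ErbB signals inside the cell, 2 were called higher and 2 lower in males at 10 against 0. By probe set this was 7 of 36, and the share of 19.4% lay near the 17.5% of all probe sets. The kinase gene Akt2 fell by 1.14 ± 0.14 (1368832_at, adjusted p = 2.51e-05), 1.07 ± 0.15 (1387353_at) and 0.55 ± 0.11 (1388765_at), with -0.08 in the fourth probe set. Akt1 fell in 1 of 3 probe sets, by 0.40 ± 0.09 (1368862_at, adjusted p = 0.00575), with 0.05 and 0.07 in the other 2. The transcription factor Stat3 rose in both of its probe sets, by 0.49 ± 0.14 (1371781_at, adjusted p = 0.0195) and 0.47 ± 0.14 (1370224_at, adjusted p = 0.0294). Pik3ca, which encodes a catalytic subunit of PI3-kinase, rose in 1 of 6 probe sets, by 0.28 ± 0.07 (1389143_at, adjusted p = 0.00783), and the 5 not called reached up to 0.32. At 1 against 0 in males Akt2 was the only one called, and fell by 0.69 ± 0.15 (1387353_at, adjusted p = 0.0195) and 0.55 ± 0.14 (1368832_at, adjusted p = 0.0313). This was 2 of 36 probe sets, 5.56% against 3.63% of all. None of the 17 was called in females at 10 against 0 (0 of 36 probe sets, against 1.86% of all). Akt2 is also abundant in fat, and white adipocyte markers fell in the same arrays, as given above; the part of fat in the Akt2 difference was not tested. The median over the 36 probe sets was 0.06 in males and -0.03 in females.

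Of 18 feedback inhibitors measured, 4 rose and 3 fell in males at 10 against 0, with a median of 0.19 over 31 probe sets. By probe set 8 of 31 were called, 25.8% against 17.5% of all. Those with the smallest p were Rnf41, a ubiquitin ligase that acts on Erbb3, which fell in 1 of 3 probe sets, by 0.80 ± 0.10 (1380569_at, adjusted p = 5.85e-05), with -0.11 and 0.25 in the other 2, Spry4, which fell by 0.72 ± 0.11 (adjusted p = 0.000288), the MAP kinase phosphatase Dusp4, which fell by 0.58 ± 0.11 (adjusted p = 0.00165), and Lrig1, an inhibitor of ErbB receptors, which rose by 0.57 ± 0.12 (adjusted p = 0.0028). At 1 against 0 in males 2 were called: Rnf41 fell by 0.41 ± 0.10 (1380569_at, adjusted p = 0.0342) and Lrig1 rose by 0.45 ± 0.12 (adjusted p = 0.0424). This was 2 of 31 probe sets, 6.45% against 3.63% of all. In females at 10 against 0 Spry2 rose by 0.50 ± 0.11 (adjusted p = 0.019) and 17 were not called, with a median of 0.04. That was 1 of 31 probe sets, 3.23% against 1.86% of all.

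All 20 genes of the growth factor response list were measured, and in males at 10 against 0, 6 rose and 3 fell, with a median of 0.14 over 33 probe sets. Egr2, a zinc finger gene, rose in 1 of its 2 probe sets (1387306_a_at), by 2.44 ± 0.22 (adjusted p = 1.8e-06) and by 1.85 ± 0.22 at 1 (adjusted p = 0.000163), while the other, not called, had 0.48 and 0.65. Dusp1, a phosphatase induced by stress and growth factors, fell by 1.95 ± 0.22 (1368147_at, adjusted p = 1.67e-05) and 0.98 ± 0.20 (1368146_at, adjusted p = 0.00225), Ptgs2, which encodes cyclooxygenase 2, fell by 1.29 ± 0.18 (adjusted p = 0.000107), and the urokinase receptor gene Plaur fell in 1 of 2 probe sets, by 0.95 ± 0.12 (1387269_s_at, adjusted p = 3.98e-05), with -0.09 in the other. At 1 against 0 in males, Etv4 rose by 1.46 ± 0.32 (1380168_at, adjusted p = 0.0185) and Etv5 by 0.68 ± 0.14 (1383447_at, adjusted p = 0.0128), both ETS factors downstream of receptor kinases. Plaur fell there by 0.54 ± 0.12 (1387269_s_at, adjusted p = 0.0182). The second probe set of each was not called at 1, with 0.53 for Etv4, -0.02 for Etv5 and -0.04 for Plaur. Of the list, 5 of 33 probe sets were called in males at 1, 15.2% against 3.63% of all. In females at 10 against 0, Phlda1 rose by 1.39 ± 0.26 (adjusted p = 0.00917) and Etv5 by 0.62 ± 0.14 (1383447_at, adjusted p = 0.0249, with -0.03 in the other probe set), with a median of 0.05. This was 2 of 33 probe sets, 6.06% against 1.86% of all. The list therefore held genes moving both ways in males. The share called in males at 10, 9 of 20 genes, is by gene. As probe sets it was 11 of 33, 33.3% against 17.5% of all.

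**Figure D4:**
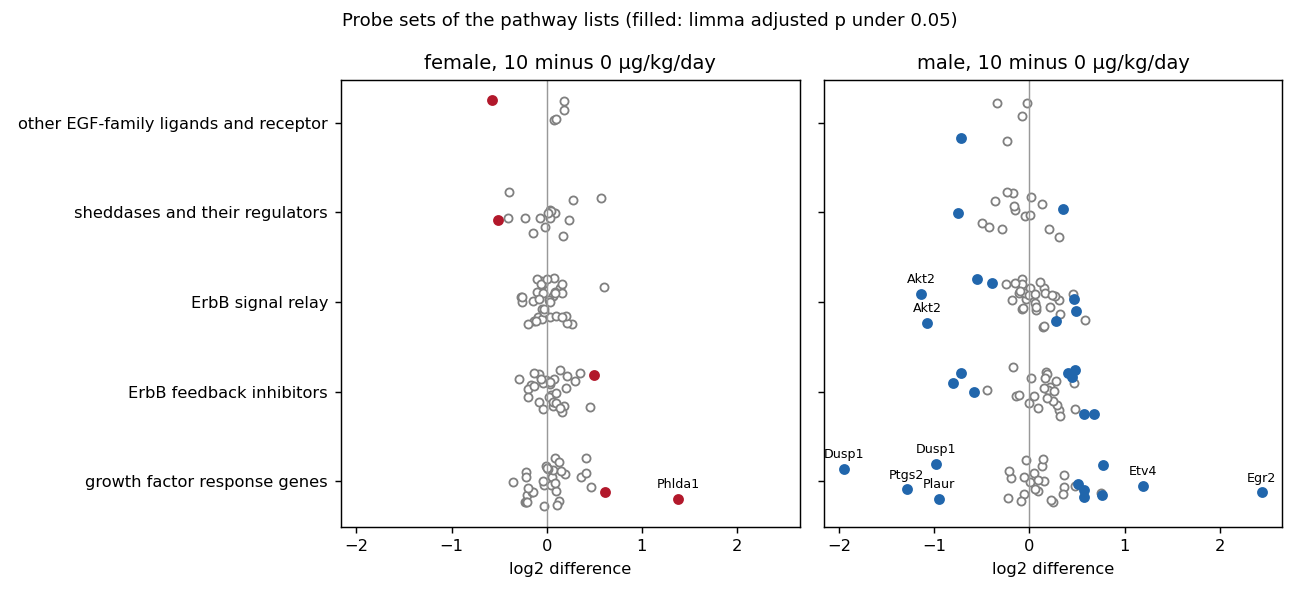
Log2 difference of 10 minus 0 µg/kg/day for each probe set of the 5 pathway lists, 1 row per list, females at left and males at right; filled points passed at an adjusted p under 0.05 and points are spread vertically only to separate them. In males the response genes reach from -1.95 (Dusp1) to 2.44 (Egr2), and in females the largest is Phlda1 at 1.39.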

How the data were processed

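RNA of rat mammary glands was measured on Affymetrix arrays, and the groups were read from the titles and characteristics. The authors deposited 1 table of log2 values (the log base is taken, not stated) for 31099 probe sets; the submitters' processing notes name GCOS alone, without version, and the sources used here give neither normalization nor centring. That the values are centred within each sex was read from the values: in 14268 probe sets the smallest value above 0 and the largest below it had the same size (within 2e-06) and lay on arrays of 1 sex, and in 2 on arrays of different sexes. No array had missing values, 0 pairs of arrays were identical, and no level filter was possible. The number of arrays limits the precision.

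After 57 control probe sets were left out, 31042 were fitted in limma 3.58.1 under R 4.3.3 (lmFit, eBayes) with 8 group means, 16 residual and 2.95 prior degrees of freedom. Each of 15 comparisons (pairs of doses within a sex, and male minus female difference from 0) was adjusted by Benjamini-Hochberg at a threshold of 0.05. The code of the fit was run on simulated data with known differences and independent noise in each probe set. That run does not speak to shifts shared by many genes, such as those of cell makeup. Platform annotation gave 1 gene for 20826 probe sets, several for 436 and none for 9780. Alternatives changed the prior, the arrays, weights, normalization, filter, covariates and blocks; the hepatocyte minimum of 0.5 was added after the data were seen. Members and lists were chosen with earlier results of these data known. Every member probe set is described; of each pathway list, up to 4 genes with the smallest adjusted p were open to naming in each comparison with a call (those not called were mostly left as counts), and Adam17 was added after its values were seen; of genes alike in pattern, 5 are named for Areg and 3 for each other called member. Protein features planned for the ligands were not analysed here.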

Additional observations from a re-analysis of the deposited data

Results flagged for a closer look

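The difference from 0 differed between the sexes in 3 results from 2 probe sets of the family, by limma's interaction test. For Areg the male minus female difference was 3.86 ± 0.63 at 1 µg/kg/day (adjusted p = 0.0307) and 5.15 ± 0.63 at 10 (adjusted p = 0.000652), and for Egfr 1381145_at it was 0.95 ± 0.20 at 10 (adjusted p = 0.0272).

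The same test passed for 6 genes of the pathway lists, each in 1 probe set, while their other probe sets did not pass. At 10, by probe set, this was 1 of 16 for the sheddases, 1 of 36 for the relay and 1 of 31 for the feedback inhibitors. Of the 33 response probe sets, 1 was called higher and 2 lower at 10. The share of all probe sets at 10 was 1.28%. At 1 it was 1 of 33 response probe sets, against 0.0483% of all. Egr2 1387306_a_at gave 2.06 ± 0.30 at 1 (adjusted p = 0.0237) and 2.35 ± 0.30 at 10 (adjusted p = 0.000972). The other 5 had a male difference below the female one at 10: Dusp1 1368147_at by -1.74 ± 0.31 (adjusted p = 0.0158), Rnf41 1380569_at by -0.89 ± 0.15 (adjusted p = 0.00909), Akt2 1368832_at by -0.87 ± 0.19 (adjusted p = 0.0302), Timp3 1368989_at by -0.79 ± 0.19 (adjusted p = 0.0414) and Plaur 1387269_s_at by -0.73 ± 0.17 (adjusted p = 0.0386). Groups of 3 arrays were not tested for single arrays that stand apart.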

How the results depend on the processing

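Counts of called probe sets of the family, out of 20, moved by over 1.5 times in the settings given here, and kept within it in the others; no difference changed sign where it was called. With array weights they were 2 for female 0.1 against 0 (0 in the main analysis), 1 for female 1 against 0.1 (0), 2 for male 1 against 0.1 (0), 4 for male 10 against 1 (1) and 4 for the sex difference at 10 (2). With arrays of 1 sex only, and with the compared groups only, they were 0 for female 10 against 0, 1 and 0.1 (2 each) and 2 for male 10 against 1, and with the compared groups only 0 for the sex difference at 1 (1). With hepatocyte and muscle covariates they were 1 for female 10 against 0 and against 1, 3 for male 10 against 0 (6) and 1 for the sex difference at 10. With the luminal covariate they were 1 for female 10 against 0, 0 for female 10 against 1, 0 for male 1 against 0 (5), 2 for male 10 against 1 and 0 for the sex difference at 1. With the beta-actin covariate they were 1 for female 10 against 1 and against 0.1, 2 for male 0.1 against 0 (0), 3 for male 10 against 0, 0 for male 10 against 1 and against 0.1 (4), 0 for the sex difference at 1 and 1 at 10. With quantile normalization they were 1 for female 10 against 0.1, 0 for male 10 against 1 and 1 for the sex difference at 10. Without arrays with a hepatocyte mean above 1 they were 0 for female 10 against 0 and against 1, 1 for female 10 against 0.1, 0 for male 10 against 1 and 0 for the sex difference at 1; with the minimum at 0.5 they were 0, 0 and 1 for the same female comparisons, 1 for male 1 against 0 and 0 for the sex difference at 1. Without the 2 widest arrays (female 0.1 replicate 4 and male 0 replicate 1) they were 4 for female 10 against 0, 0 for female 10 against 0.1, 3 for male 1 against 0 and 1 for male 1 against 0.1. With 1 mean value per gene, the genes called were 1 for female 10 against 1 and against 0.1 (2 each), 2 for male 10 against 1 (1) and 0 for the sex difference at 1 (1). With 1 array left out in turn they ranged from 0 to 1 for female 10 against 0 and against 1, 0 to 3 for female 10 against 0.1, 1 to 5 for male 1 against 0, 5 to 6 for male 10 against 0, 0 to 1 for male 10 against 1, 3 to 4 for male 10 against 0.1, 0 to 1 for the sex difference at 1 and 1 to 3 at 10. The share of all probe sets called under each setting is not given here. Whether these moves are particular to the family is therefore not known, and their cause was not tested.

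The replicate numbers 1 to 12 are shared between the sexes. Over 12 same-numbered pairs the correlation of deviations from group means was -0.48 to 0.59, with 5 over 0.1, and 4 of 12 female arrays matched their own number best. These values do not show that the numbers pair the arrays, and with 3 arrays per group they cannot exclude it. With the replicate block as a random term (correlation 0.106) the counts were 6 for male 10 against 0, 5 for male 1 against 0 and 3 for the sex difference at 10, and with a fixed replicate block the last was also 3; the added calls were Egfr 1370830_at (0.75, adjusted p = 0.0432) and Tgfa 1381449_s_at (1.09, adjusted p = 0.0344).

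Over all settings and differences of single member probe sets, 6168 kept direction and call, 148 lost the call and 44 gained it. Most of the 6168 were not called in the main analysis and so had no call to lose. These counts therefore do not measure how stable the calls were. Centred values without levels leave the signal over background of every probe set unknown.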
